A study of Caenorhabditis elegans with 2 samples.

Results

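The homeobox genes of Caenorhabditis elegans were examined for binding by LIN-35 in ChIP-seq peak lists from whole young adults. The set comprised every nuclear protein-coding gene named ceh-, for C. elegans homeobox, together with lin-39, mab-5, egl-5, nob-1, php-3, unc-4, unc-30, unc-42, unc-86, mec-3, lim-4, lim-6, lim-7, ttx-1, ttx-3, vab-7 and pal-1. This gave 80 of the 19973 nuclear coding genes in the annotation of the WBcel235 assembly, the assembly that genome browsers call ce11. Of the 80 genes, 21 lie on chromosome X, 16 on III, 14 each on II and V, 9 on I and 6 on IV.

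The libraries are 2 biological replicates of 1 group, strain YL521, which carries unc-119(ed3) III and the integrated transgene vrIs117. In that transgene the pie-1 promoter drives LIN-35 joined to GFP and FLAG, followed by the PUF-5 3' untranslated region, and a wild-type unc-119 copy serves as the rescue marker. The animals were mixed-sex young adults of unknown age, chromatin was sheared by sonication, and lin-35 is the named antibody target. The pie-1 promoter is a germline promoter, and the labels do not state how much of the recovered LIN-35 came from the transgene. Whole animals were used, so a summit cannot be assigned to a cell type, and binding in few cells cannot be told apart from weak binding in many. With 1 group and no contrast between samples, no test between conditions was possible.

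Homeobox genes encode transcription factors that share a DNA-binding homeodomain. In the worm the Hox members set position along the body axis, and most other classes (LIM, POU, paired-like, sine oculis, NK, CUT) act in neurons, pharynx, muscle or epidermis to fix cell identity. LIN-35 is the worm's retinoblastoma-family protein, a subunit of the DREAM complex, in which E2F and DP proteins contact E2F sites and LIN-54 contacts the CHR element.

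The authors' list thresholded by irreproducible discovery rate (IDR) held 2712 peaks, and their relaxed lists of peaks and background held 30000 peaks for the pooled alignments, 30000 for replicate 1 and 26192 for replicate 2. A gene counts as bound here if the summit of a thresholded peak, its point of highest signal, fell no more than 500 bp from the annotated 5' end. Such 5' ends often mark a trans-splice site rather than the start of transcription. Signal values are the authors' own, their scale is not stated, and they were compared within 1 list at a time. The read depth behind each list is unknown, and no interval given here covers it.

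Only ceh-38 and ceh-39, both members of the ONECUT branch of the CUT class, were bound. That is 2 of 80 homeobox genes (2.50%, 95% Wilson interval 0.688 to 8.66%), beside 8.61% of all nuclear coding genes. The interval covers counting error over genes only, genes are not samples, and the share of all coding genes lies just inside it. The other 78 members, among them the 6 genes classed as Hox, 6 as LIM, 3 as POU, 3 as sine oculis and 6 as NK, had no thresholded summit at their 5' end. Classes were assigned by hand, and 31 of the 80 members were left without one, so a class may be incomplete.

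The sequences under these peaks are shown because they are the 2 places where LIN-35 binding reached a homeobox 5' end at the authors' threshold, and because they differ in DREAM-type words. They were read from the RefSeq genome of WBcel235, 5' to 3', 30 bases each. For ceh-38 the capital marks the summit base at chrII:6951518-6951547, plus strand, the strand of the gene. For ceh-39 the capitals mark an E2F word at chrX:1856374-1856403 and at chrX:1856414-1856443, both on the minus strand, the strand of the gene, and a CHR word at chrX:1856449-1856478 on the plus strand.
ceh-38 summit: attctgtcaggcaatTcgttgtaagacccc
ceh-39 E2F word nearer the summit: cattccccccttTTCCCGCccgaaatttac
ceh-39 E2F word farther from the summit: ctctgtcgcaacTTCCCGCcacccttctca
ceh-39 CHR word: gaggcatagaggTTCGAAtggagaggaata

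The peak at ceh-38 (WBGene00000459, chromosome II, 6951526 to 6955409, plus strand) spanned 6951385 to 6951680 with its summit at 6951533. That summit lay 7 bp downstream of the 5' end, in the 5' untranslated region. Its signal was 84.9 in the thresholded and pooled lists, rank 990. In replicate 1 the nearest summit had a signal of 42.3 (rank 692) and lay 88 bp from the pooled summit. In replicate 2 it had a signal of 38.1 (rank 1712) and lay 1 bp away. Both replicates thus held the peak among their 2712 strongest. The gene malt-1 starts on the opposite strand with its 5' end 233 bp from the same summit, so both genes of this divergent pair were called bound by 1 peak, and ceh-38 is the nearer.

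The peak at ceh-39 (WBGene00000460, chromosome X, 1853874 to 1856172, minus strand) spanned 1856221 to 1856516 with its summit at 1856369, in intergenic sequence 197 bp upstream of the 5' end. ceh-39 is known as an X signal element, one of the X-linked genes whose dose the embryo reads when it sets sex through xol-1. The signal was 76.7, rank 1152. Replicate 2 held a summit 3 bp from the pooled one with a signal of 57.8 (rank 933). Replicate 1 held one 71 bp away with a signal of 17.7 (rank 3155), which is outside its 2712 strongest peaks, so the peak was strong in replicate 2 and weaker by rank in replicate 1. A noncoding RNA gene, T26C11.10, lies under the same peak, and the gap to the next coding gene upstream is 4549 bp. A further thresholded summit in that gap, at an offset of -2598 bp from the ceh-39 5' end, had a pooled signal of 57.6, with 22.3 in replicate 1 and 36 in replicate 2. It lies nearer to the 5' end of T26C11.8, the upstream gene on the opposite strand, at -4550 bp.

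Both signals lay near the middle of the bound genes. Over the 1719 bound coding genes the signal had a median of 86.1 and quartiles of 58.2 and 141. A share of 48.9% of them lay below ceh-38 and 42.8% below ceh-39.

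The E2F words searched were TTCCCGC, the variant TTCGCGC, the variant TTGCCGC and the variant TTGGCGC, and the CHR words were TTCGAA and TTTGAA, on both strands, within 100 bp of a summit. TTCGAA is its own reverse complement and was counted once. The ceh-39 window held 2 E2F words, 19 and 59 bp from the summit, and 1 CHR word 95 bp away. The ceh-38 window held no word of either kind. Among thresholded summits at coding 5' ends, 24.7% of 1354 windows held an E2F word and 55.2% a CHR word. GC content was 56.2% in the ceh-39 window and 42.8% in the ceh-38 window, beside a mean of 40.2% over those 1354 windows. A match says only that these letters are present.

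At the 5' ends themselves, in windows of 201 bp, 8 of 80 homeobox genes (10%, Wilson interval 5.15 to 18.5%) held an E2F word, beside 5.30% of all coding genes, a share inside that interval. The 8 genes were ceh-1, ceh-2, ceh-22, ceh-83, ceh-87, ceh-92, lim-4 and mec-3, none of them bound. A CHR word was found at 40 of 80 (50%) and at 50.5% of all coding genes, shares that are alike. Mean GC content was 39.9% at homeobox 5' ends and 36.4% at all coding 5' ends.

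ceh-39 is the first gene of a run on 1 strand, in the order ceh-39, T26C11.9, ceh-21, ceh-41, with gaps of only 24, 101 and 103 bp. The ONECUT genes ceh-21 and ceh-41 stand at its far end. From the 5' end of ceh-39 to the 3' end of ceh-41, 9565 bp, there was no thresholded, pooled or replicate 1 summit and 3 replicate 2 summits. The peak upstream of ceh-39 was also the nearest thresholded summit to ceh-21, at 3633 bp, and the one nearest to ceh-41 lay 3090 bp away, 39 bp from the 5' end of T26C11.4. Of the remaining CUT genes, ceh-48, a neuronal ONECUT gene, had its nearest thresholded summit in intergenic sequence 2149 bp upstream, and ceh-49 at 12538 bp. The 6 CUT genes thus had a median distance of 2620 bp to the nearest thresholded summit, against 15286 bp for the 6 Hox genes, 18456 bp for the 6 LIM genes, 14472 bp for the 3 POU genes, 13320 bp for the 7 paired-like genes, 28958 bp for the 6 NK genes and 48842 bp for the 3 sine oculis genes. Neighbouring CUT genes share summits, so these distances are not independent. The CUT class also holds both bound genes, at 7 and 197 bp, so its low median is no evidence separate from those calls.

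**Figure D1:**
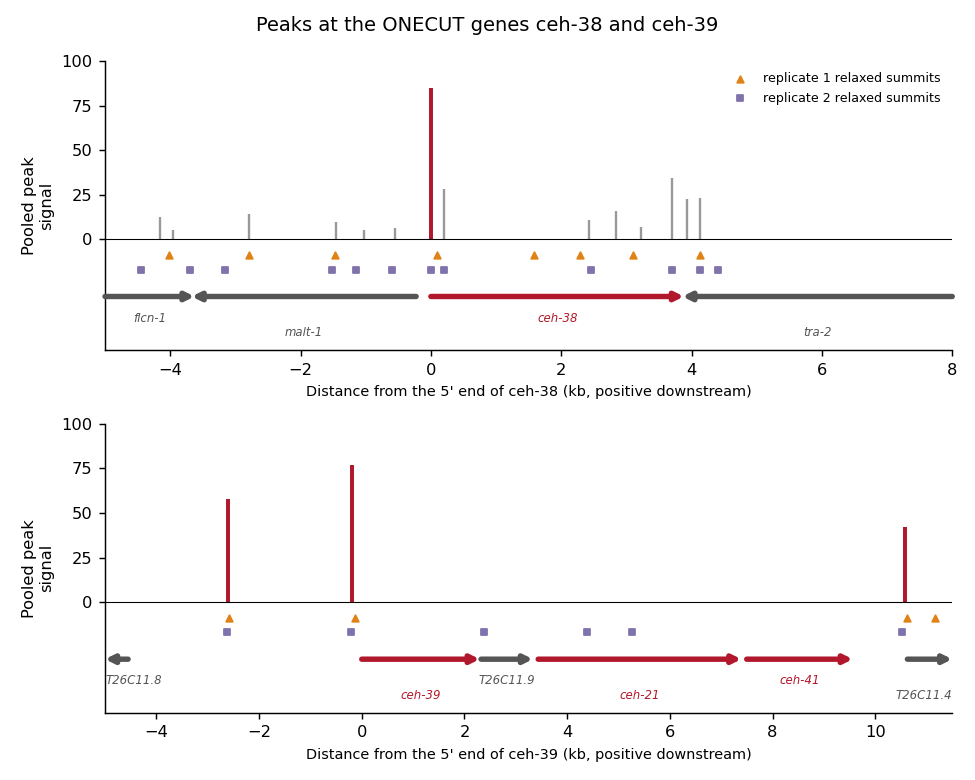
Peaks around ceh-38 (top) and ceh-39 (bottom), drawn in the direction of each gene. The horizontal axis is the distance from the 5' end in kb. Bars give the pooled signal at each summit, dark red where the peak is in the thresholded list and grey where it is not, triangles and squares mark replicate 1 and replicate 2 relaxed summits, and arrows mark coding genes, homeobox genes in red. The ceh-38 bar stands at 84.9 at the start of the gene, the ceh-39 bar at 76.7 upstream of it, and no bar stands over ceh-39, ceh-21 or ceh-41.

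None of the 6 Hox genes was bound. Thresholded summits are sparse everywhere, 0.268 per 10 kb over the nuclear genome and 0.398 on chromosome III, so intervals the size of the Hox pairs are too short to show a scarcity. The whole 289 kb from lin-39 to egl-5, with 43 coding genes, held 10, or 0.347 per 10 kb. lin-39, the midbody Hox gene that acts in vulval and neuroblast fates, and ceh-13, the anterior labial-type gene, form 1 pair on chromosome III. Across the 29.4 kb from one end of this pair to the other there was no thresholded summit. The pooled list held 14 summits there, 4.76 per 10 kb, close to the 4.41 per 10 kb of chromosome III as a whole and above the 2.99 of the nuclear genome. Their signals ran from 4.74 to 18.9, all below the lowest thresholded signal of 41.9. Of the 14, 2 were matched by a summit within 200 bp in both replicates, 11 in 1 replicate and 1 in neither.

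mab-5, which patterns the posterior body, and egl-5, which patterns the tail, form the next pair. Their 40.3 kb held 1 thresholded summit, 84 bp upstream of cyk-7, a gene between them. It had a signal of 69.3 (rank 1338), 23.1 in replicate 1 (rank 2012) and no replicate 2 summit within 200 bp. The pooled list held 3 summits in this interval, 0.744 per 10 kb, all nearest to cyk-7. Replicate 1 held 8 summits there and replicate 2 none, so the replicates differed. This interval was the sparsest of the 3 Hox pairs in the pooled list.

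php-3 and nob-1, the posterior genes of Abdominal-B type, lie side by side. Their 10.1 kb held no thresholded summit and 3 pooled summits, 2.97 per 10 kb, below the 4.41 of chromosome III and near the 2.99 of the nuclear genome. The highest of the 3 signals was 14.8.

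The nearest thresholded summit lay 12039 bp from mab-5, the one at cyk-7, 14759 bp from egl-5, 14780 bp from ceh-13 and 15791 bp from lin-39, where it sat at cux-7 with a signal of 210. It lay 68031 bp from nob-1 and 74791 bp from php-3. The first 4 were thus somewhat nearer than the median of all coding genes, 16796 bp, and the posterior pair much farther. That median covers all chromosomes, and thresholded summits are denser on III, where the Hox genes lie (0.398 against 0.268 per 10 kb). A comparison with the other genes of III was not made. pal-1, the caudal gene that specifies posterior fates, was 13319 bp from its nearest thresholded summit, and vab-7, the even-skipped gene of posterior patterning, 14995 bp. The summit nearest to vab-7 had a signal of 180 and was intronic, with the 5' end of unc-119 the nearest coding start. The strain carries a further copy of unc-119 in its transgene, and the part of that copy in this peak was not tested.

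**Figure D2:**
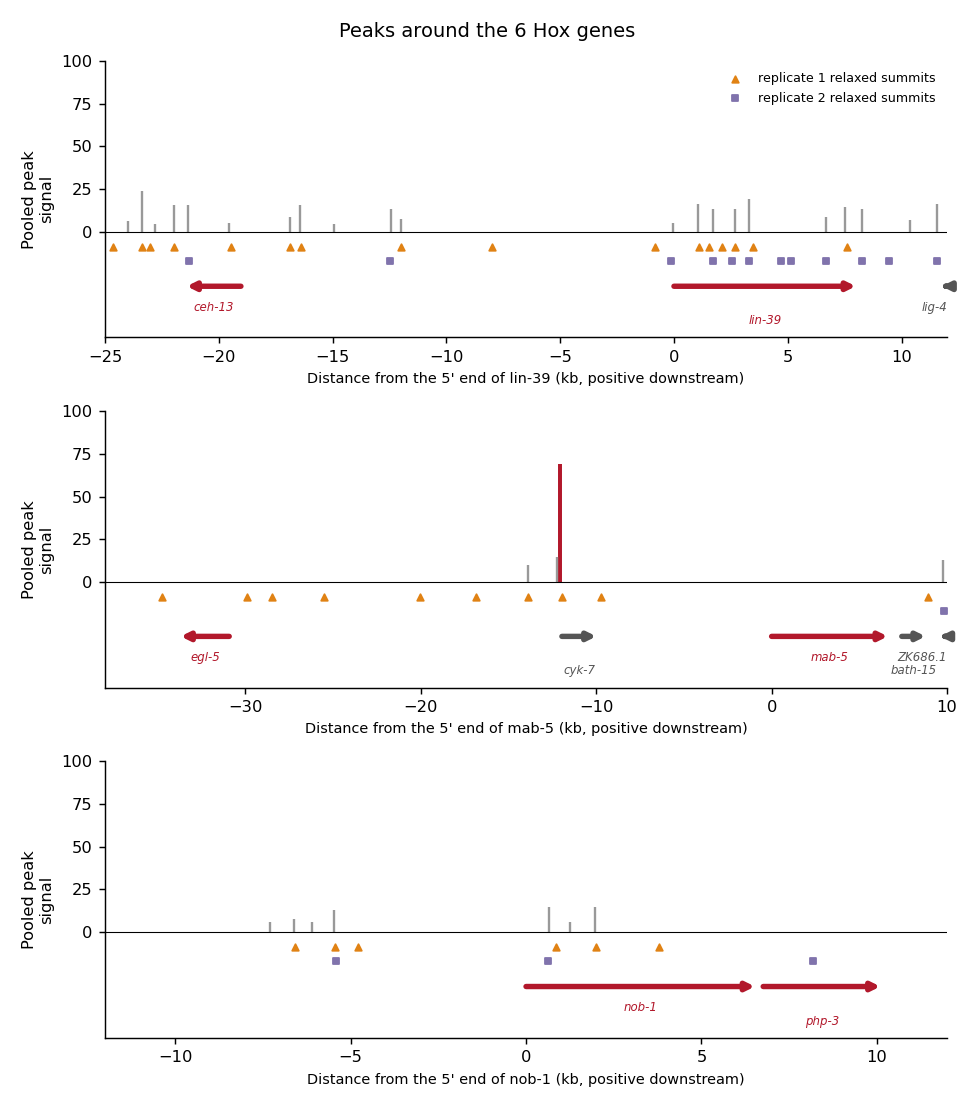
Peaks around the Hox gene pairs lin-39 and ceh-13 (top), mab-5 and egl-5 (middle) and nob-1 and php-3 (bottom). The horizontal axis is the distance in kb from the 5' end of lin-39, mab-5 or nob-1, in the direction of that gene. Bars give the pooled signal, dark red where thresholded and grey where not, symbols mark relaxed summits of each replicate, and arrows mark coding genes, homeobox genes in red. One thresholded bar, at 69.3 beside cyk-7, stands among grey bars of at most 18.9 inside the pairs.

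Below the authors' threshold the share of homeobox 5' ends with a summit was lower than that of all coding genes in each relaxed list. In the pooled relaxed list 10 of 80 had a summit within 500 bp (12.5%, Wilson interval 6.93 to 21.5%), beside 29.2% of all coding genes, which lies outside that interval. In replicate 1 the count was 16 (20%, interval 12.7 to 30%) beside 31.1%, and in replicate 2 it was 10 (12.5%) beside 28.0%. In both replicates at once it was 5 (6.25%, interval 2.70 to 13.8%) beside 20.3%. Cut to the 2712 strongest peaks, replicate 1 called 1 member, ceh-38, beside 7.75% of coding genes, and replicate 2 called ceh-38 and ceh-39 beside 8.47%. Only ceh-38 was called in both of these (1.25% beside 5.65%).

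**Figure D3:**
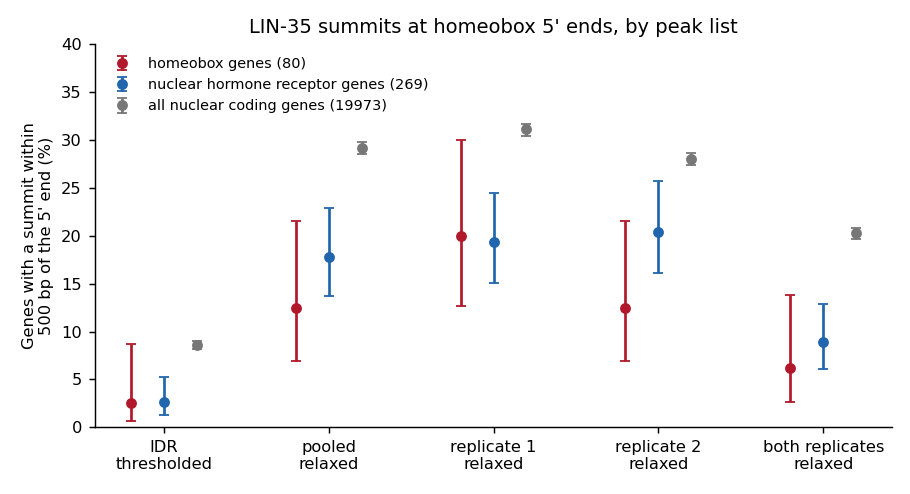
Share of genes with a LIN-35 summit within 500 bp of the 5' end (vertical axis, percent) in the thresholded list, the 3 relaxed lists and both replicate lists at once. Points are the 80 homeobox genes, the 269 nuclear hormone receptor genes and all 19973 nuclear coding genes, and bars are 95% Wilson intervals of counting error. The homeobox point lies below that of all coding genes in each of the 5 columns. The nuclear hormone receptor point is close to it in the thresholded list (2.60%) and above it in replicate 2 (20.4% and 12.5%).

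The 5 members with a summit in both replicate lists were ceh-5, ceh-38, ceh-39, ceh-43 and unc-42. A further 11 had one in replicate 1 only and 5 in replicate 2 only. Of the members with a replicate 1 summit, 31.2% also had one in replicate 2, and of those with a replicate 2 summit 50% had one in replicate 1. Over all coding genes these shares were 65.2% and 72.3%. No summit in any of the 3 relaxed lists was found at 58 members (72.5%), beside 59.7% of all coding genes.

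The 8 members with a pooled summit that did not pass the threshold had signals from 5.08 to 24.8. ceh-99 had the highest, 24.8 (rank 5863), 156 bp upstream, matched within 200 bp in replicate 1 at 7.77 and not in replicate 2. Its window held an E2F word 31 bp from the summit. unc-42, a paired-like gene that fixes the identity of command interneurons, had a signal of 20.9 (rank 7497), 310 bp upstream, matched in replicate 1 at 6.33 and in replicate 2 at 5.12. Both replicates were low there.

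ceh-63 had a signal of 19.2 (rank 8474) in its 5' untranslated region, matched in replicate 2 alone at 14.5. ceh-5 had 17.6 (rank 9426), with no match in either replicate within 200 bp, although each replicate held another summit within 500 bp of the gene. ceh-43, the Distal-less gene, had 9.52 (rank 18481), matched at 3.78 and 4.55. Replicate 2 held a stronger summit 416 bp downstream of the ceh-43 5' end, with a signal of 24.9 (rank 3011). A tRNA gene and a noncoding RNA gene lie under the pooled peak, and their part in the pooled signal was not tested.

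ceh-19 had a signal of 5.66 (rank 26324), matched in replicate 1 at 13.8. lin-39 had 5.30 (rank 27240), 37 bp upstream of its 5' end, matched in replicate 2 at 6.33, with 2 noncoding RNA genes under the peak. ceh-20, the Pbx-type cofactor that binds DNA with Hox proteins, had 5.08 (rank 27770), unmatched. These last 3 stand near the end of the list of 30000.

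Of the 10 pooled summits at homeobox genes, 4 were matched in both replicates (40%), 4 in 1 and 2 in neither. Over all coding genes 54.6% were matched in both.

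**Figure D4:**
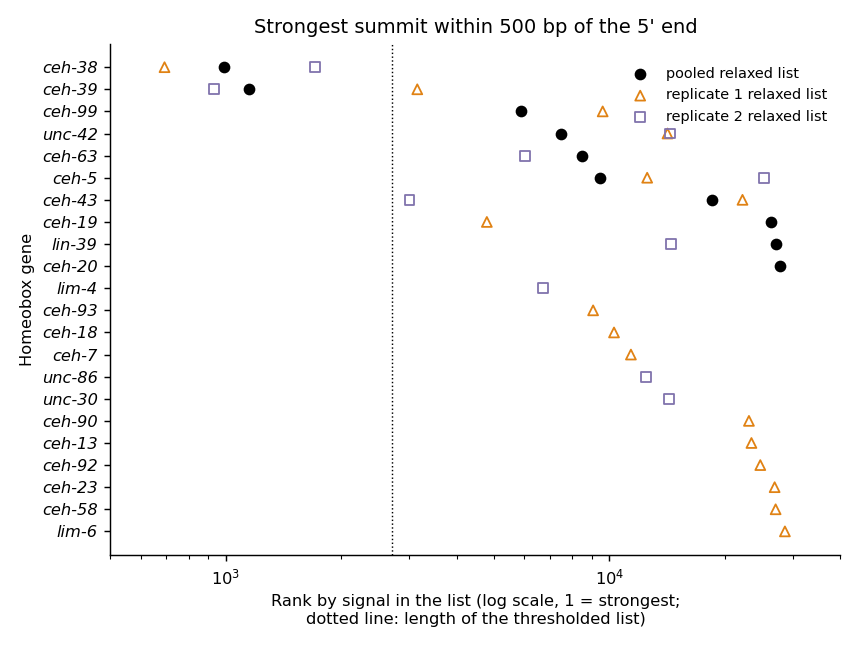
Rank by signal, on a log scale with 1 the strongest, of the strongest summit within 500 bp of each homeobox 5' end, for the 22 members with a summit in any relaxed list. Circles are the pooled list, triangles replicate 1, squares replicate 2, and the dotted line marks the 2712 peaks of the thresholded list. ceh-38 is left of the line in all 3 lists, ceh-39 in the pooled list and replicate 2, and every other member lies to the right.

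The members just outside the 500 bp limit were few. The nearest was ceh-92, with a thresholded summit at 877 bp (signal 47.5) that stood closer, 245 bp, to the 5' end of Y66D12A.7. ceh-5 followed at 1682 bp (signal 80.1, rank 1081) and ceh-48 at 2149 bp (signal 76.8, rank 1150), each with no other coding 5' end nearer to the summit. ceh-41 followed at 3090 bp (signal 42.1), and unc-42 at 3550 bp downstream, where the summit lay in an intron with a signal of 52.0. That intronic summit had a signal of 44.1 (rank 1388) in replicate 2 and 8.32 (rank 10226) in replicate 1.

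Within 2000 bp the thresholded share was 5% for the 80 genes (4 genes) and 15.1% for all coding genes, and the pooled share 30% and 41.5%. Within 10000 bp the thresholded shares were 26.2% and 37.2%, and the pooled shares 72.5% and 67.2%. In the thresholded list the homeobox share was the lower at all 3 distances, and at 10000 bp the share of all coding genes lay just outside the Wilson interval of 17.9 to 36.8%. In the pooled list the order had turned at 10000 bp. The median distance to the nearest thresholded summit was 16648 bp (quartiles 9399 and 34790 bp) for homeobox genes and 16796 bp (quartiles 5135 and 40551 bp) for all coding genes. The medians were alike, while the lower quartile of the homeobox genes was farther out.

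For summits inside the gene body the shares lay closer together. Homeobox genes are longer, with a median of 3277 bp against 2027 bp, and these shares are not adjusted for length. They therefore do not show whether summit density inside the genes differs. A thresholded summit lay inside 3 members (3.75%, Wilson interval 1.28 to 10.5%), beside 3.66% of all coding genes. They were ceh-38, unc-42 and ceh-8, whose summit in the 3' untranslated region had a signal of 75.6. A pooled summit lay inside 22 members (27.5%), beside 31.8%, a replicate 1 summit inside 29 (36.2%), beside 38.2%, and a replicate 2 summit inside 24 (30%), beside 31.4%.

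**Figure D5:**
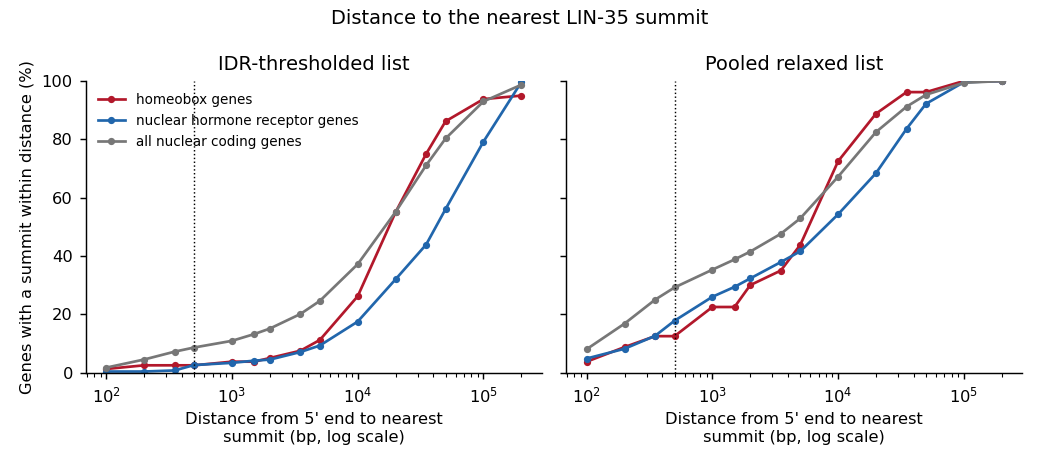
Share of genes (vertical axis, percent) with a LIN-35 summit within a given distance of the 5' end (horizontal axis, bp, log scale), in the thresholded list (left) and the pooled relaxed list (right). Lines are the 80 homeobox genes, 269 nuclear hormone receptor genes and all 19973 nuclear coding genes, and the dotted line marks 500 bp. On the left the homeobox line runs below that of all coding genes near the 5' end (2.50% and 8.61% at 500 bp). It reaches that line by about the median distance of 16648 bp. On the right it is below at 5000 bp (43.8% and 52.9%) and above at 10000 bp (72.5% and 67.2%).

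Homeobox genes differ from other genes in their setting. The median gap to the next coding gene upstream was 2594 bp for them and 936 bp for all coding genes, and the median gene length 3277 bp and 2027 bp. Bound shares moved with the gap over all coding genes, from 14.7% for gaps of 1 to 500 bp to 8.41% for 501 to 2000 bp and 4.06% for over 2000 bp, while genes that overlap or abut their upstream neighbour were bound at 6.96%. The 3 gap classes held 12, 19 and 44 homeobox genes, with 1, 0 and 1 bound, and the overlapping class held 5, none bound. When the bound shares of all coding genes were weighted to the gap classes of the 80 members, the share was 6.86% in the thresholded list and 26.1% in the pooled list, beside the 2.50% and 12.5% found. Weighted to their chromosomes it was 8.51% and 29.8%. The part of gene spacing in the member counts was not tested.

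The chromosomes differed too. None of the 16 homeobox genes on III was bound, beside 14.5% of its coding genes, and none of the 9 on I, beside 13.3%. None of the 6 on IV (beside 8.66%) and none of the 14 on V (beside 5.57%) was bound. On II 1 of 14 was bound, beside 8.18%, and on X 1 of 21, beside 4.06%.

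For 39 of the 78 unbound members (50%) the nearest thresholded summit lay within 500 bp of another coding 5' end, beside 54.0% of all unbound coding genes, a similar share.

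The 22 further homeobox genes with other names, such as lin-11, vab-3, pax-3, cog-1, mls-2, zag-1, unc-62 and irx-1, had no thresholded summit, and 0 of 22 allows a share of up to 13.6%, which holds the 8.61% of all coding genes. In the pooled list 4 of 22 had a summit (18.2%, interval 7.31 to 38.5%, which holds the 29.2% of all coding genes), irx-1 at 20.9, duxl-1 at 16.8, unc-62, the Meis-type Hox cofactor, at 8.75 and dve-1 at 4.65. With these genes added the bound count stayed at 2 of 102 (1.96%, interval 0.539 to 6.87%, beside 8.61%), and the pooled count was 14 (13.7%, beside 29.2%). Nuclear hormone receptor genes, another large family of transcription factors, had 7 of 269 bound (2.60%, interval 1.27 to 5.27%, beside 8.61%) and 48 with a pooled summit (17.8%, beside 29.2%).

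Genes known to act with or upon the Hox genes were counted beside them. Of 20 Hox cofactors and regulators, 5 were bound (25%, interval 11.2 to 46.9%), beside 8.61% of all coding genes, and 9 had a pooled summit (45%) beside 29.2%. The list includes 5 homeobox genes, ceh-20, ceh-40 and ceh-60 of the 80 and unc-62 and psa-3 of the further 22, none of them bound. It is small and was chosen with earlier results of these data known, so its share is not independent of them. No test of the difference between the lists was made.

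mes-2, the worm Enhancer of zeste, had the strongest of these peaks. Its signal was 264 (rank 171), 73.3 in replicate 1 (rank 275) and 184 in replicate 2 (rank 150), 120 bp upstream of its 5' end, so it stood high in every list. mes-6, which encodes its partner in the Polycomb-type repressive complex that silences Hox genes, had a signal of 113 (rank 653), 59.7 in replicate 1 and 48.7 in replicate 2, 8 bp upstream.

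The mes-2 window held 3 E2F words and 1 CHR word. The words are shown for comparison with ceh-39, from chrII:14383745-14383774 and chrII:14383812-14383841, plus strand, with each TTCGCGC in capitals; the second overlaps a TTGGCGC on the other strand. The mes-6 window held 1 CHR word, 7 bp from the summit, shown from chrIV:8511254-8511283, plus strand.
mes-2 E2F word farther from the summit: aatggcagaacTTCGCGCctgggtaacata
mes-2 E2F word nearer the summit: aattccaaaccTTCGCGCcaacttcacatt
mes-6 CHR word: ccactaatgcaaTTTGAAcgagaaatgcgc

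sor-3, a gene needed to keep Hox genes silent, had a signal of 101 (rank 776), 42.2 in replicate 1 and 48.5 in replicate 2. Its summit, 289 bp upstream, lay inside a tRNA gene, and the part of that gene in the signal was not tested. lin-59, related to the fly gene ash1, had a signal of 78.6 (rank 1117), 38.9 in replicate 1 and 73.3 in replicate 2. pop-1, the TCF factor of Wnt signalling, had 50.7 (rank 2057), 26.1 and 31.2, with a noncoding RNA gene at its summit. In contrast to ceh-39, all 5 had a summit among the 2712 strongest of both replicates. utx-1 (32.7), egl-27 (24.4), unc-62 and ceh-20 had a pooled summit that did not pass the threshold, and the other 11 had no pooled summit within 500 bp. Among those 11, mes-3, sop-2, spat-3 and sor-1 had a replicate 1 summit within that distance. sor-1, another gene of Hox silencing, missed the limit narrowly, with a thresholded summit at 501 bp (signal 131, rank 509) and a replicate 1 summit at 495 bp (signal 32.4, rank 1108).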

How the data were processed

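Per the labels, LIN-35 ChIP-seq was made from 2 biological replicates of 1 group. The authors deposited narrowPeak lists in ce10 and ce11: a relaxed list for each replicate and for the pooled alignments, each made with a control, and a list thresholded by IDR. Aligner and peak caller are not stated in the labels or headers read, control and reads were not analysed here, and depth is unknown. The signal of each peak is a score the authors deposited, its scale not stated. The q-value of each peak was deposited by the authors as −log10 and was not used for ranking. The ce10 lists were not used, since the reference was WBcel235 (ce11) with Ensembl release 115.

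Summits were joined to the 5' ends of coding genes within 500 bp, and a peak was matched to a replicate when the summits lay within 200 bp. Replicate lists were also cut to their 2712 strongest peaks. Shares carry 95% Wilson intervals, and a count of 0 the limit of 3 counts, both for counting error only. No hypothesis test was run, since 1 group of 2 replicates gives no contrast. Named genes were the bound members, all Hox genes with pal-1 and vab-7, the members with the highest pooled signals, the 5 members just outside 500 bp, the bound genes of the other lists and neighbours sharing a summit. The other genes and regions named, such as the genes with E2F words, were chosen after their values were seen. The members and gene lists were chosen with earlier results of these data known. Alternatives changed the distance (200 and 1000 bp), the threshold, the peak list, the assignment, the 5' ends and the genes, and left out each replicate. The limit to upstream gaps over 2000 bp and the limit to the 15000 strongest pooled peaks were added after seeing the data. Python 3.11.15, numpy 2.4.6, scipy 1.17.1 and matplotlib 3.10.9 were used. On simulated summits planted at 200 of the 19973 coding genes, all 200 were recovered.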

Additional observations from a re-analysis of the deposited data

How the results depend on the processing

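The count of bound homeobox genes stayed at 2 (2.50%) at 200 bp, beside 4.49% of all coding genes. It was also 2 with the stronger 1356 thresholded peaks (beside 5.52%) and with overlapping peaks merged (beside 8.60%). It was 2 again with a summit given to the nearest gene alone (beside 6.71%) and with the starts of all coding transcripts (beside 9.14%). Of these shares of all coding genes, only the last lies outside the Wilson interval of 0.688 to 8.66%. At 1000 bp the count was 3 (3.75%, beside 10.9%). It was 1 with peaks among the strongest of both replicates (1.25%, beside 5.48% of all coding genes) and 1 on autosomes (1.69% beside 9.33%). Over genes with an upstream gap above 2000 bp, an alternative chosen after seeing the data, it was 1 (2.27% beside 4.06%). Leaving out a replicate meant taking the relaxed list of the other, cut to its 2712 strongest peaks. These homeobox counts therefore repeat those given above for the cut lists. Leaving out replicate 1 gave 2 (2.50%, beside 8.47%). Leaving out replicate 2 gave 1 (1.25%, beside 7.75%), and ceh-39 was lost. Hox cofactors and regulators gave 3 at 200 bp (15.0%, beside 4.49%), 9 at 1000 bp (45%, beside 10.9%) and 5 to 6 leaving out 1 replicate (beside 8.47% and 7.75%). Pooled summits were found at 18 homeobox genes at 1000 bp (beside 35.3%). They were found at 6 in the 15000 strongest pooled peaks (beside 21.3%), a limit chosen after seeing the data. With 1 replicate left out, the whole relaxed list of the other was used and no new pooled list was made. Those counts repeat the ones given above, 10 without replicate 1 (beside 28.0%) and 16 without replicate 2 (beside 31.1%). The median distance was 22932 bp with the stronger 1356 peaks, where all coding genes gave 29888 bp. It was 17666 bp without replicate 1 (all coding genes 16516 bp) and 16882 bp without replicate 2 (all coding genes 17070 bp). In each of these counts but that of the regulators the share of homeobox genes was below that of all coding genes. The cause was not tested, except that fewer peaks, fewer genes or a shorter distance give fewer calls by construction. No paired analysis was possible because there is 1 group. Depth is unknown, so a 5' end without a summit is not shown to lack LIN-35.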
